A study of Homo sapiens with 15 samples.

Results

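The hypoxia genes described here were 10 named genes. They were the oxygen-regulated transcription factor subunits HIF1A and EPAS1, the oxygen-sensing prolyl hydroxylases EGLN1 and EGLN3, and the target genes CA9, CA12, VEGFA, ADM, NDRG1 and P4HA1. Every non-control probe annotated to a RefSeq transcript of one of these genes was taken, which gave 12 probes on 38 spots out of 42405 probes on the array, the genes being 10 of 19483 that could be named. HIF1A and VEGFA each had 2 probes and the other 8 genes had 1. The rule that picks the probes uses annotation and no measured value, but the genes themselves were chosen with earlier results of these data known.

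The cells were PE/CA-PJ41, an immortalised human oral squamous carcinoma line, grown in RPMI medium with serum. Cytoglobin expressing cells (CYGB+) carried the pCMV6-Neo plasmid with the human cytoglobin cDNA under a viral promoter, were picked as a stable clone in G418 and, per the study's methods, were a single clone. Control cells (NCE) carried the empty transfection vector per the labels, although parts of the study call them untransfected. All cells stood in supplemented medium for 24 h before RNA extraction, and the labels name no drug and no low-oxygen exposure for either group. RNA was extracted on 3 occasions per group and hybridised to 9 arrays for NCE and 6 for CYGB+, and the array repeats of one biological replicate were averaged, so that each comparison set 3 values against 3. With 1 clone, an effect of cytoglobin and a property of that clone cannot be told apart. The p-values of the main comparison measure the spread between these 3 replicates. Those of the slide fits rest on the spread between single arrays as well.

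Cells sense oxygen through the hypoxia-inducible factors. When oxygen is plentiful, the EGLN enzymes (also called PHD) hydroxylate the alpha subunits encoded by HIF1A and EPAS1, and the VHL ubiquitin ligase then sends them for degradation. When oxygen falls, the alpha subunits persist, pair with ARNT and bind hypoxia response elements with the core A or G followed by CGTG, which switches on genes for glycolysis, pH control, blood vessel growth and matrix synthesis. Much of this control acts on the protein, whereas the arrays measured RNA alone.

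The RefSeq promoters of 4 members are shown because HIF1A, EPAS1 and P4HA1 had lower signal in CYGB+ and because CA9 is the textbook direct target. Each runs from 250 bases before to 50 bases after an annotated start (GRCh38.p14), is written 5′ to 3′ on the gene's strand, and has in capitals each match to ACGTG or GCGTG on either strand (CACGT or CACGC when read on the gene's strand). Where CACGTG occurs, the matches to CACGT and ACGTG overlap, and a window counts once.

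P4HA1 (chr10:73096817-73097116, minus strand): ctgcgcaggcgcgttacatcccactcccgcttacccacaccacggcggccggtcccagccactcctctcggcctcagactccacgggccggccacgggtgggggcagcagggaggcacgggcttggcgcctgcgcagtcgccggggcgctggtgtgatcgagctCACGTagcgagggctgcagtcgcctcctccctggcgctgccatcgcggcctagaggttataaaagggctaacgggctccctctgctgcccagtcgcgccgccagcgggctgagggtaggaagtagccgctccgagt

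HIF1A (chr14:61695263-61695562, plus strand): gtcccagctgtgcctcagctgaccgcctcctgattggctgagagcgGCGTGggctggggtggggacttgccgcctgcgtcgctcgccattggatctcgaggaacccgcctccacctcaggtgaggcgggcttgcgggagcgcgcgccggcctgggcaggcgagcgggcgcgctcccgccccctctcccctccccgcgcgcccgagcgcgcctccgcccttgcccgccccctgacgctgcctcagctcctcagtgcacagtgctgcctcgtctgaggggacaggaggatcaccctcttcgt

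EPAS1 (chr2:46297157-46297456, plus strand): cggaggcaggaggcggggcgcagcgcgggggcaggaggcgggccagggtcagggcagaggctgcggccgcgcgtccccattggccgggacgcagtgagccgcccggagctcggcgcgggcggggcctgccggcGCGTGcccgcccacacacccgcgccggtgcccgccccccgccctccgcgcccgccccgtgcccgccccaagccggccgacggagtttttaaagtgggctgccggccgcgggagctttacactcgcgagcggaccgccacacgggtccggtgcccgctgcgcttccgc

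CA9 (chr9:35673678-35673977, plus strand): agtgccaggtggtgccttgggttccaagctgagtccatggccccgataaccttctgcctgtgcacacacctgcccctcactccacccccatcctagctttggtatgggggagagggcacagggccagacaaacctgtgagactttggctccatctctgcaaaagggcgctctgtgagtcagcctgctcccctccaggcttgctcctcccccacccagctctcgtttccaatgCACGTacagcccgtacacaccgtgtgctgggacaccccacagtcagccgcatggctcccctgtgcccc

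The P4HA1 match began 86 bases before the annotated start, that of CA9 18 bases before it, that of EPAS1 117 bases before it and that of HIF1A 204 bases before it. A second annotated start of HIF1A had no match in its window. Of the 10 members, 8 had an entry in the promoter table (VEGFA and NDRG1 did not), and 7 of these 8 genes held at least 1 match, with EGLN3 the exception. At least 1 of the motifs was present in 48.4% of all 35116 promoter windows of this length (21.4% for ACGTG and 36.5% for GCGTG), so a match is common and is given as a description of these letters only.

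The arrays lay on 2 slides. The first held 8 NCE arrays, while the second held all 6 CYGB+ arrays and 1 NCE array (replicate 1), so that slide and group were almost the same split. Median green background was 24 to 29 on the first slide and 37 to 43 on the second. Any value corrected for slide, or taken within the second slide, rests on that 1 NCE array. In addition 3 arrays (NCE replicate 3 array 2, CYGB+ replicate 1 array 1 and CYGB+ replicate 3 array 2) stood apart from their own groups, with a median correlation of deviations of -0.04 to 0.10 against 0.12 to 0.53 for 11 others, and results are given with and without them. They were picked for low correlation with their own group, so leaving them out narrows the spread within groups by selection. Adjusted p-values without them are therefore descriptions and add no separate support. The NCE array of the second slide had the lowest correlation of all, -0.14, but was the only link between the slides and was kept, so the values that rest on it rest on an array unlike the rest of its group. The only probe named as cytoglobin through RefSeq read 11.85, 12.15 and 11.96 in the NCE replicates and 11.38, 12.44 and 11.97 in the CYGB+ replicates. Its log2 difference was -0.05 ± 0.25 (SE, limma adjusted p = 0.912), so it did not separate the groups. Its NCE level was far above that of CA12 (5.91 to 5.99 in NCE), which was not well above background on any array. The paper, in contrast, describes the parent line as not expressing cytoglobin. Why the probe read high in NCE was not tested. Whether it lies within the transfected cDNA is not known from the sources used here, so every direction below rests on the labels. All 14 squamous epithelial markers were well above background on every array, and 6 of 17 measured markers of other cell types were well above background on none. Of these 17, COL1A2 and CD14 were so on every array, CDH5 on 8 NCE and 6 CYGB+ arrays, COL1A1 on 7 and 6, PTPRC on 3 and 2, and the others on fewer. Of the squamous markers 2 were called lower in CYGB+ by limma, KRT6A (-0.46, adjusted p = 0.0446) and ITGB4 (-0.66, adjusted p = 0.0347), and 0 higher.

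Of the 9 member genes that passed the filter on dim probes, 4 were called at an adjusted p under 0.05 (limma, adjusted over all 22186 tested probes) by their brightest probe. HIF1A, EPAS1 and P4HA1 fell in CYGB+ and NDRG1 rose, while EGLN1, EGLN3, CA9, VEGFA and ADM did not pass the test and CA12 was not well above background. The 4 calls were 44.4% of the 9 genes, beside 10.9% of all probes tested (5.56% higher and 5.36% lower in CYGB+). The genes were chosen with earlier results of these data known, so their share is a description only. It also sets the brightest probe of each gene beside every tested probe. The median log2 difference was -0.37 over the 9 genes and 0.01 over all probes tested. Under a block for slide 1 member was called, HIF1A, beside 3.3% of all probes. Without the 3 arrays that stood apart 6 members were called, 5 lower and 1 higher, beside 22.9% of all probes.

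**Figure D1:**
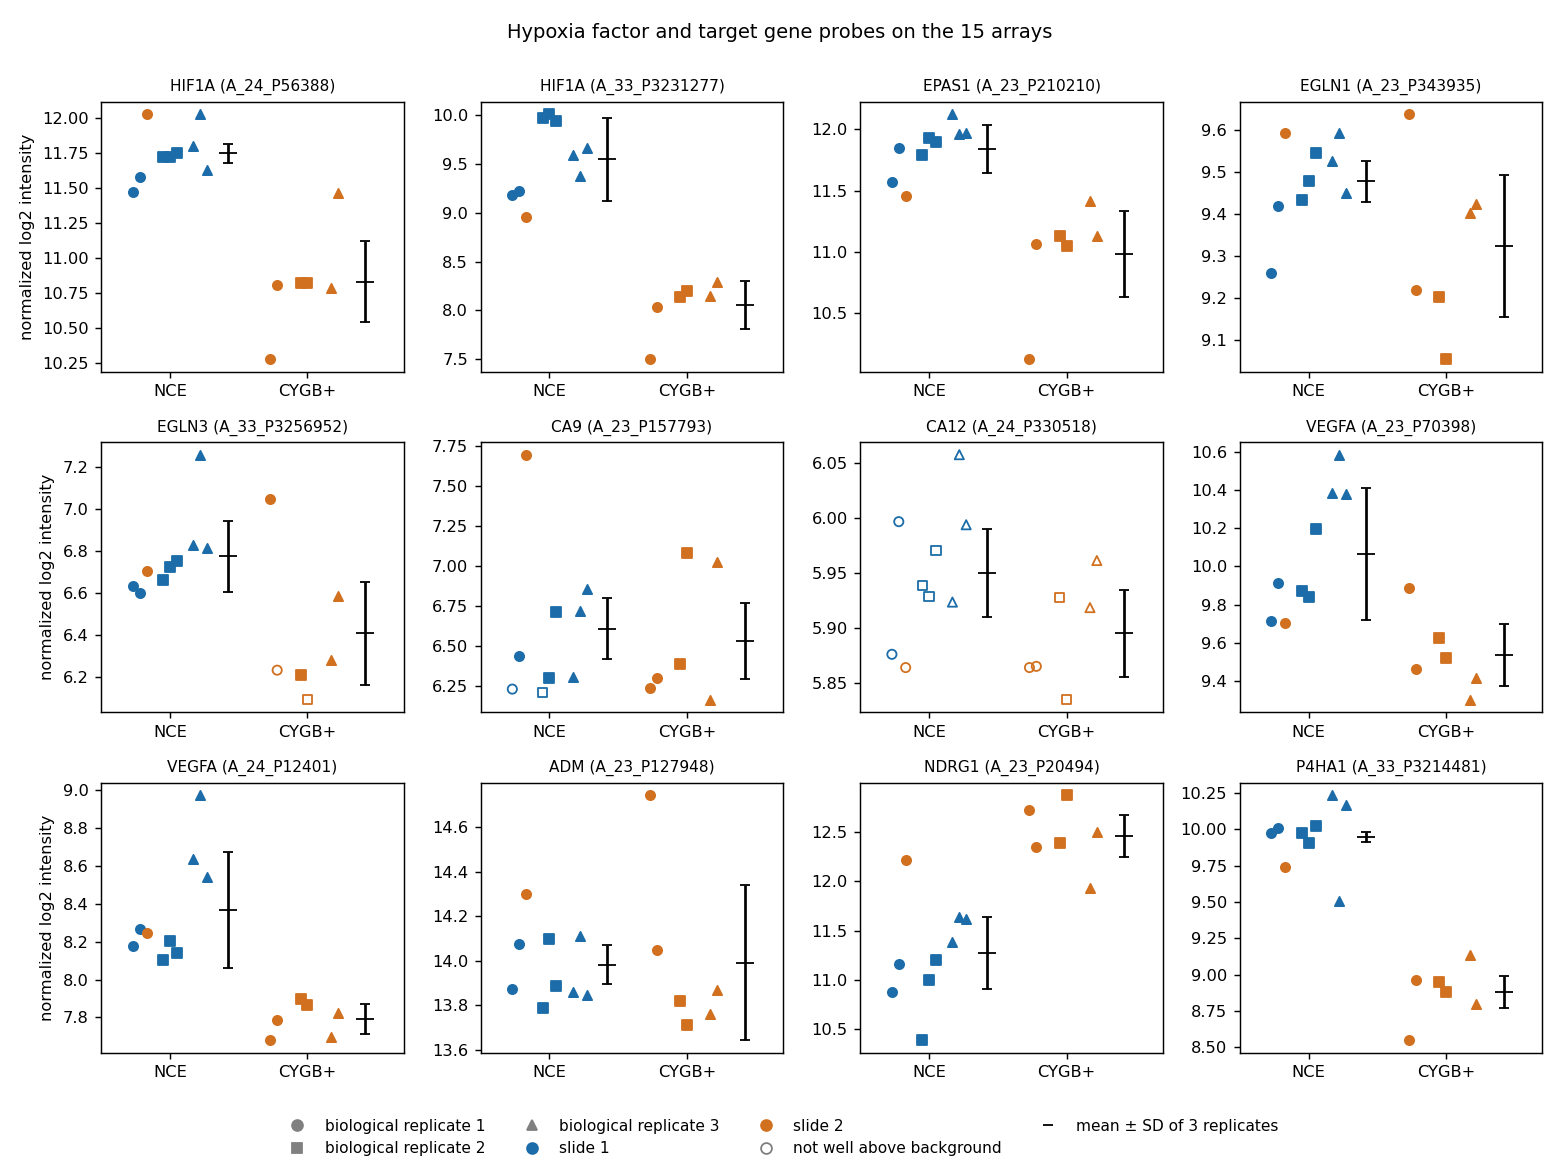
Normalized log2 intensity of each of the 12 probes on the 15 arrays, by labelled group, with symbols for biological replicate, blue for the first slide and orange for the second, open symbols where the spot was not well above background, and the mean ± SD of the 3 replicate values. Both HIF1A probes, EPAS1, P4HA1 and VEGFA probe A_24_P12401 are lower on all 6 CYGB+ arrays than on any of the 9 NCE arrays. This order holds for 4.85% of all probes. The orange NCE array sits with CYGB+ for NDRG1 and above both groups for CA9.

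HIF1A encodes the alpha subunit of HIF-1, the main oxygen-labile factor. Its probe printed on 10 spots (A_24_P56388) had normalized log2 intensities of 11.69, 11.73 and 11.82 in NCE replicates 1 to 3 and 10.54, 10.82 and 11.12 in CYGB+ replicates 1 to 3. All 3 CYGB+ values lay below all 3 NCE values, which held for 16.7% of all probes in this direction, and the single arrays did not overlap either, with 11.47 to 12.02 in NCE and 10.28 to 11.46 in CYGB+ (4.85% of all probes in this direction). The signal was 1.88-fold lower in CYGB+, a log2 difference of -0.91 ± 0.15 (SE, n = 3 per group; 95% interval -1.27 to -0.56; adjusted p = 0.0141). In a bulk sample, fewer cells with the transcript and less of it per cell cannot be told apart.

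The second HIF1A probe (A_33_P3231277, 1 spot) fell as well. It read 9.12, 9.98 and 9.55 in NCE and 7.77, 8.17 and 8.22 in CYGB+, again with no overlap between replicates or between single arrays. Its log2 difference was -1.5 ± 0.23 (SE; adjusted p = 0.0111), or 2.82-fold lower. Without the 3 arrays that stood apart it was -1.46 ± 0.19 (adjusted p = 0.00258), and -0.90 ± 0.07 (adjusted p = 4.8e-04) on the 10-spot probe. The slide terms moved the probes in opposite ways and rest on the 1 NCE array of the second slide. On the 10-spot probe that array read 12.02, which was 0.50 above the mean of the other arrays of its replicate. On the 1-spot probe it read 8.96, the lowest of the NCE arrays, and differed by -0.24 from that mean. Blocking on slide, the 10-spot probe differed by -1.25 ± 0.28 (adjusted p = 0.0249) and the 1-spot probe by -1.03 ± 0.30 (adjusted p = 0.0833). Within the second slide alone the differences were -1.19 (adjusted p = 0.246) and -0.91 (adjusted p = 0.289), in a comparison with 1 NCE array where 5 probes in all were called (0.0225%). Without NCE replicate 2 or NCE replicate 3 the adjusted p of the 10-spot probe became 0.0645 and 0.0643, with differences of -0.92 and -0.88, and without NCE replicate 3 that of the 1-spot probe became 0.0519.

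EPAS1 encodes the HIF-2 alpha subunit, the close relative of HIF-1 alpha. Its probe read 11.63, 11.87 and 12.02 in the NCE replicates and 10.59, 11.09 and 11.27 in the CYGB+ replicates. The CYGB+ replicates were all lower (16.7% of all probes had this order). Single arrays ran from 11.45 to 12.12 in NCE and from 10.13 to 11.42 in CYGB+ without overlap (4.85% of all probes). The log2 difference was -0.85 ± 0.19 (SE; 95% interval -1.30 to -0.41; adjusted p = 0.0340), or 1.81-fold lower. The lowest of all arrays for this probe was CYGB+ replicate 1 array 1, one of the 3 that stood apart, and without those 3 the difference was -0.66 ± 0.14 (adjusted p = 0.0134).

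The EPAS1 difference was smaller once slide was taken into account. It was -0.52 ± 0.31 with slide as a block (adjusted p = 0.550) and -0.47 within the second slide (adjusted p = 0.667). The 1 NCE array on that slide read 11.45 and was the lowest of the NCE arrays, although it stayed above every CYGB+ array. With slide as a block and the 3 arrays that stood apart left out, the difference was -0.38 ± 0.17 (adjusted p = 0.131). The call was also lost without CYGB+ replicate 2, NCE replicate 1, NCE replicate 2 or NCE replicate 3, at adjusted p from 0.0546 to 0.124 and differences from -0.76 to -0.96.

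EGLN1, or PHD2, is the main oxygen sensor that marks HIF alpha subunits for degradation. It read 9.42, 9.49 and 9.52 in NCE and 9.43, 9.13 and 9.41 in CYGB+, so that the groups overlapped at replicate 1. The log2 difference of -0.15 ± 0.11 (SE; 95% interval -0.41 to 0.10; adjusted p = 0.407) did not pass the test. Without the 3 arrays that stood apart it was -0.22 ± 0.09 (adjusted p = 0.123). Blocking on slide gave -0.31 ± 0.17 (adjusted p = 0.50), or -0.42 ± 0.13 (adjusted p = 0.0348) without those 3 arrays.

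EGLN3, or PHD3, is a sensor whose own RNA rises strongly in hypoxia in many cells. Its signal was low, well above background on 9 of 9 NCE arrays and 4 of 6 CYGB+ arrays. The replicate values were 6.65, 6.71 and 6.97 in NCE and 6.64, 6.15 and 6.43 in CYGB+. Replicate 1 was nearly level in both groups, and the other 2 numbers were lower in CYGB+ by more than 0.5 on the log2 scale. The log2 difference was -0.37 ± 0.15 (SE; 95% interval -0.72 to -0.01; adjusted p = 0.166).

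The EGLN3 difference varied with the arrays and the signal used. CYGB+ replicate 1 array 1 read 7.05 where the other CYGB+ arrays read 6.09 to 6.59, and NCE replicate 3 array 2 read 7.26 where the other NCE arrays read 6.60 to 6.83. Both belong to the 3 arrays that stood apart, and without those 3 the difference was -0.51 ± 0.08 (adjusted p = 0.00497). A block for slide gave -0.34 ± 0.29 (adjusted p = 0.739). When the scanner's own background-subtracted signal was used instead, which stretches low values, it was -1.28 ± 0.32 (adjusted p = 0.0488).

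CA9 encodes a cell-surface carbonic anhydrase that takes part in pH control and is widely used as a marker of hypoxia in carcinomas. It was a dim probe, well above background on 7 of 9 NCE arrays and on 6 of 6 CYGB+ arrays. It read 6.79, 6.41 and 6.62 in NCE and 6.27, 6.73 and 6.59 in CYGB+. The groups overlapped, and the log2 difference of -0.07 ± 0.15 (SE; 95% interval -0.43 to 0.29; adjusted p = 0.791) did not pass the test. Without the 3 arrays that stood apart it was -0.19 ± 0.16 (adjusted p = 0.425).

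The NCE array on the second slide was the highest of all 15 for CA9. It read 7.69, against 6.21 to 6.86 on the 8 NCE arrays of the first slide and 6.16 to 7.08 on the CYGB+ arrays. It was 1.36 above the mean of the other arrays of its own biological replicate, all on the first slide. Taking slide as a block, the CA9 difference was -1.20 ± 0.34 (adjusted p = 0.0778), and -1.33 ± 0.33 (adjusted p = 0.0128) when the 3 arrays that stood apart were also left out. Without that 1 NCE array the difference was 0.08 ± 0.15 (adjusted p = 0.762), so the sign of the CA9 difference depended on it.

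CA12, another membrane carbonic anhydrase, was not well above background on any of the 9 NCE or 6 CYGB+ arrays. Its replicate values were 5.91, 5.95 and 5.99 in NCE and 5.86, 5.88 and 5.94 in CYGB+, and no fold is given.

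VEGFA encodes the growth factor that drives new vessel formation. Its brighter probe (A_23_P70398) read 9.78, 9.97 and 10.45 in NCE and 9.68, 9.57 and 9.36 in CYGB+, and the dimmer probe (A_24_P12401) read 8.23, 8.15 and 8.72 in NCE and 7.73, 7.88 and 7.76 in CYGB+. On both probes all 3 CYGB+ replicates lay below all 3 NCE replicates (16.7% of all probes), with the highest value in NCE replicate 3. Single arrays of the dimmer probe did not overlap either (4.85% of all probes in this direction). They read 8.10 to 8.97 in NCE and 7.68 to 7.90 in CYGB+, while those of the brighter probe overlapped. The log2 differences were -0.53 ± 0.18 (adjusted p = 0.110) and -0.57 ± 0.16 (adjusted p = 0.0613), neither past the threshold. Without the 3 arrays that stood apart they were -0.60 ± 0.16 (adjusted p = 0.0298) and -0.53 ± 0.12 (adjusted p = 0.0200). With slide as a block they were -0.25 ± 0.27 (adjusted p = 0.825) and -0.50 ± 0.23 (adjusted p = 0.346).

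ADM encodes adrenomedullin, a secreted vasodilator peptide. Its probe on 10 spots read 14.08, 13.93 and 13.94 in NCE and 14.40, 13.77 and 13.82 in CYGB+. The order of the groups differed between replicate numbers, with CYGB+ higher at replicate 1 and lower at replicates 2 and 3. The difference was 0.01 ± 0.17 (SE; 95% interval -0.40 to 0.42; adjusted p = 0.977). CYGB+ replicate 1 array 1 read 14.74 and the other CYGB+ arrays 13.71 to 14.05, and without the 3 arrays that stood apart the difference was -0.09 ± 0.11 (adjusted p = 0.565). The slide block gave -0.30 ± 0.27 (adjusted p = 0.779).

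NDRG1, a stress-responsive protein whose RNA rises in hypoxia and on iron depletion, was the 1 member that rose. It read 11.42, 10.86 and 11.55 in NCE and 12.53, 12.63 and 12.22 in CYGB+, with every CYGB+ replicate above every NCE replicate (17.2% of all probes were ordered this way). The log2 difference was 1.18 ± 0.20 (SE; 95% interval 0.72 to 1.65; adjusted p = 0.0149), or 2.27-fold higher. It kept its call when any 1 replicate was left out and lost it under the methods' t-test (adjusted p = 0.0921). Without the 3 arrays that stood apart the difference was 1.04 ± 0.22 (adjusted p = 0.0132), and 0.06 ± 0.37 (adjusted p = 0.927) with slide as a block too.

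The NDRG1 difference was nevertheless much smaller once slide was taken into account. The 8 NCE arrays of the first slide read 10.39 to 11.63 and the 6 CYGB+ arrays, all on the second slide, 11.93 to 12.87. The NCE array on the second slide read 12.22, inside the CYGB+ range and 1.19 above the mean of the other arrays of its own replicate. The slide block gave a difference of 0.20 ± 0.37 (adjusted p = 0.918), and within the second slide 0.24 ± 0.22 (adjusted p = 0.791), so the call was lost. For NDRG1 the group and the slide cannot be told apart beyond what that 1 array shows.

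P4HA1 encodes a catalytic subunit of collagen prolyl 4-hydroxylase, which hydroxylates collagen in the endoplasmic reticulum. It read 9.91, 9.97 and 9.97 in NCE and 8.76, 8.91 and 8.97 in CYGB+. The replicates were tight and far apart (16.7% of all probes had all CYGB+ replicates lower). Single arrays ran from 9.51 to 10.24 in NCE and from 8.55 to 9.14 in CYGB+, an order held by 4.85% of all probes. The log2 difference was -1.07 ± 0.09 (SE; 95% interval -1.29 to -0.85; adjusted p = 0.00385), or 2.10-fold lower. It held when any 1 replicate was left out and without the 3 arrays that stood apart (-1.02 ± 0.10, adjusted p = 0.00116).

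Unlike NDRG1, P4HA1 kept most of its difference under the slide terms. The NCE array on the second slide read 9.74, within the NCE range of 9.51 to 10.24 of the first slide. With slide as a block the difference was -0.86 ± 0.24 (adjusted p = 0.0643) and within the second slide -0.86 ± 0.18 (adjusted p = 0.239), so the call was lost with a smaller change in size. With slide as a block and without the 3 arrays that stood apart it was -0.78 ± 0.12 (adjusted p = 7.24e-04). The collagen chain gene COL1A2, a listed marker of fibroblasts and the only one of 4 tested other-cell markers to be called, was lower as well (-1.32, adjusted p = 0.00311), while COL1A1, well above background on 7 of 9 NCE and 6 of 6 CYGB+ arrays, differed by 0.10 (adjusted p = 0.700). Of the other fibroblast markers, COL3A1, LUM and PDGFRB were not well above background on any array, and DCN and PDGFRA were so on 1 array each. The summed level of the 17 measured other-cell markers was 10.55 to 10.75 (log2) over the NCE replicates and 10.35 to 10.51 over the CYGB+ replicates, and that of the 14 squamous markers 17.06 to 17.15 and 16.95 to 17.19. The part of other cell types in these results was not tested.

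**Figure D2:**
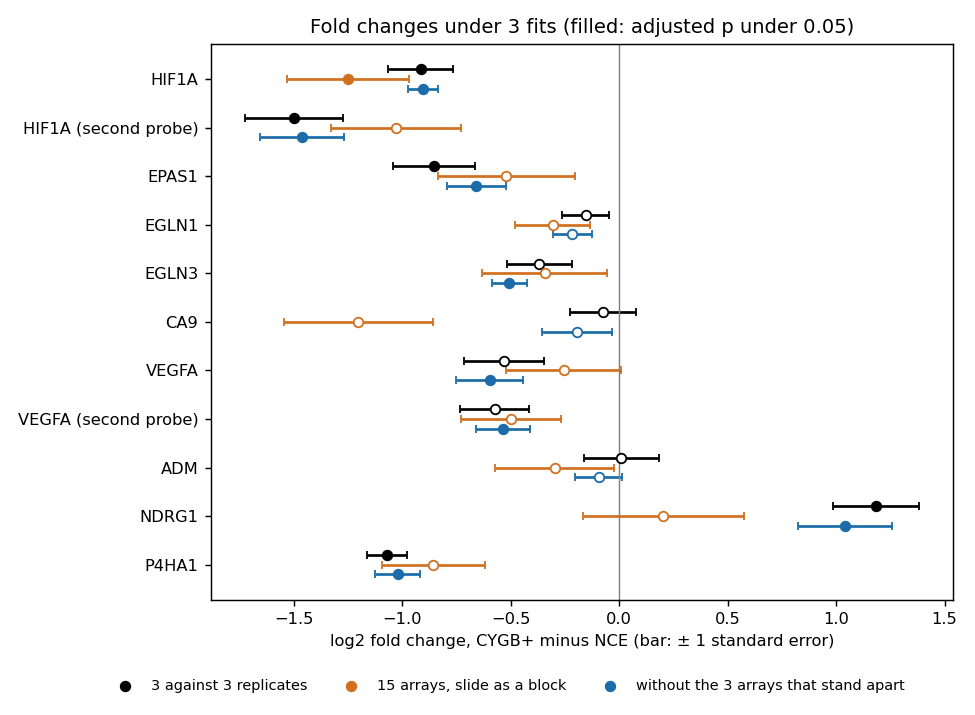
Log2 fold change (CYGB+ minus NCE) of the 11 tested member probes, with bars of 1 standard error, in the comparison of 3 against 3 replicates (black), over 15 arrays with slide as a block (orange) and without the 3 arrays that stood apart (blue). Filled points have an adjusted p under 0.05, and NDRG1 moves from 1.18 to 0.20 and CA9 from -0.07 to -1.20 when slide is a block.

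**Figure D3:**
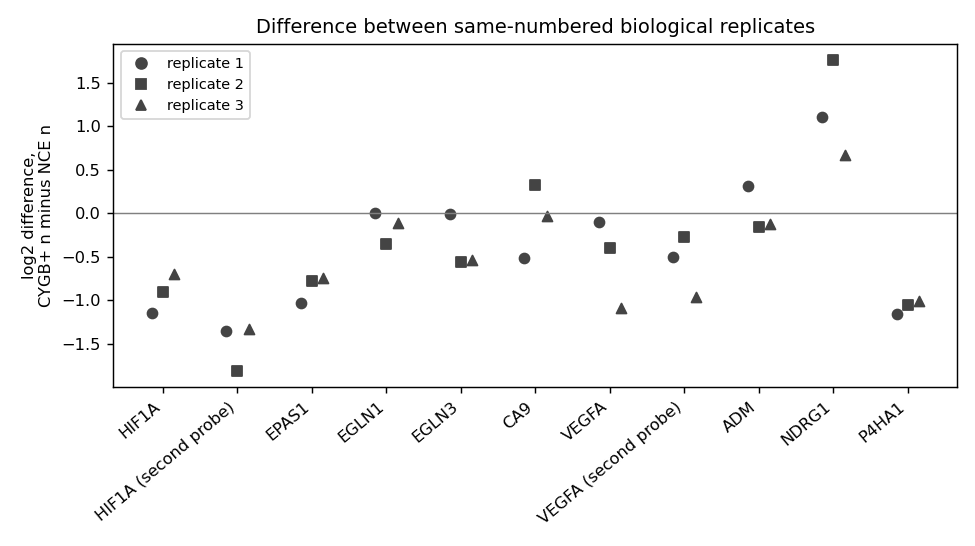
Log2 difference between the CYGB+ and NCE biological replicates of the same number, for the 11 tested member probes. HIF1A, EPAS1, EGLN3, VEGFA and P4HA1 are below 0 at all 3 numbers, the smallest being -0.01 for EGLN3 at replicate 1, NDRG1 is above 0 at all 3, and EGLN1, CA9 and ADM lie on both sides.

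Across same-numbered replicates, P4HA1 was the most even member, with differences of -1.15, -1.05 and -1.0. EPAS1 gave -1.03, -0.78 and -0.75, and HIF1A on its 10-spot probe -1.15, -0.91 and -0.69. The VEGFA differences were uneven, from -0.10 at replicate 1 to -1.09 at replicate 3 on the brighter probe.

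The wider oxygen-sensing pathway was described with a list of 13 regulators, all of them measured. None of the 13 was called by limma and none by the methods' t-test after Benjamini-Hochberg adjustment, while 2 had an unadjusted p under 0.05 by limma. These were ARNT2, a partner of HIF alpha subunits (-0.44 ± 0.14 SE, adjusted p = 0.0985), and EP300, a histone acetyltransferase that HIF recruits (-0.30 ± 0.09, adjusted p = 0.0734), named here after their values were seen. ARNT, the usual HIF partner, differed by 0.07 ± 0.12 (adjusted p = 0.745). The median log2 difference of the 13 was 0.03, beside 0.01 over all probes tested. Without the 3 arrays that stood apart 1 regulator was called, beside 22.9% of all probes. When slide was a block as well 3 were called, beside 4564 of all 22186 probes.

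A second list held 68 other genes that hypoxia is known to induce, of which 66 had a probe and 56 were tested. In CYGB+ 3 of them rose, 5 fell and 48 did not pass the test. The 8 calls were 14.3% of the list beside 10.9% of all probes tested, and the list's median was -0.03. This list too was chosen with earlier results of these data known. Of the 56 genes, 31 lay below 0 and 25 above it, beside 10905 below and 11281 above over all probes tested.

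Among the listed target genes AK4, BNIP3L, PDK1 and ERO1A fell most. AK4, a mitochondrial adenylate kinase, read 11.90, 12.39 and 12.18 in NCE and from 10.91 to 11.23 in CYGB+, without overlap, and fell by 1.11 ± 0.15 on the log2 scale (adjusted p = 0.00822). BNIP3L, a mitophagy receptor, read 9.63, 9.80 and 10.07 in NCE and 8.97, 8.78 and 8.95 in CYGB+, without overlap, and fell by 0.93 ± 0.13 (adjusted p = 0.00932). PDK1, the kinase that restrains pyruvate entry into the citric acid cycle, read 8.20, 8.01 and 8.43 in NCE and 7.31, 7.33 and 7.45 in CYGB+ and fell by 0.86 ± 0.12 (adjusted p = 0.0100). For all of these genes the CYGB+ replicates lay below the NCE replicates, which held for 16.7% of all probes in this direction. They were named because they were called and fell most, so this order adds no separate support.

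ERO1A, an oxidase of the endoplasmic reticulum, fell by 0.77 ± 0.18 (adjusted p = 0.0403), and its adjusted p was 0.0533 to 0.139 when any replicate other than NCE replicate 1 was left out. The lowest remaining call was LDHA, lactate dehydrogenase A, at -0.65 ± 0.10 (adjusted p = 0.0127), named here to complete the count. Under the slide block PDK1 differed by -0.94 (adjusted p = 0.00928), whereas AK4 became -0.55 (adjusted p = 0.153), BNIP3L -0.68 (adjusted p = 0.136), ERO1A -0.69 (adjusted p = 0.235) and LDHA -0.14 (adjusted p = 0.917).

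HMOX1, the haem-degrading enzyme haem oxygenase 1, rose most among the calls. It read 7.29, 7.45 and 7.61 in NCE and 8.38, 8.51 and 8.47 in CYGB+, a log2 difference of 1.00 ± 0.11 (adjusted p = 0.00530), or 2.00-fold higher, and 1.01 with slide as a block (adjusted p = 0.00145). HMOX1 also answers to oxidative stress and haem. IGFBP3, an insulin-like growth factor binding protein, rose by 0.87 ± 0.17 (adjusted p = 0.0238), and KDM4B, a histone demethylase, rose by 0.47 ± 0.11 (adjusted p = 0.0366). Both had smaller values with slide as a block (0.22, adjusted p = 0.812, and 0.11, adjusted p = 0.917), and KDM4B lost its call when any 1 replicate was left out, IGFBP3 without CYGB+ replicate 3, NCE replicate 2 or NCE replicate 3.

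Once slide was a block, 2 of the 56 target genes were called, PDK1 lower and HMOX1 higher, beside 3.3% of all probes tested. Without the 3 arrays that stood apart 19 were called, 6 higher and 13 lower, beside 22.9% of all probes. With both steps 17 were called, 4 higher and 13 lower, beside 4564 of all 22186 probes.

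**Figure D4:**
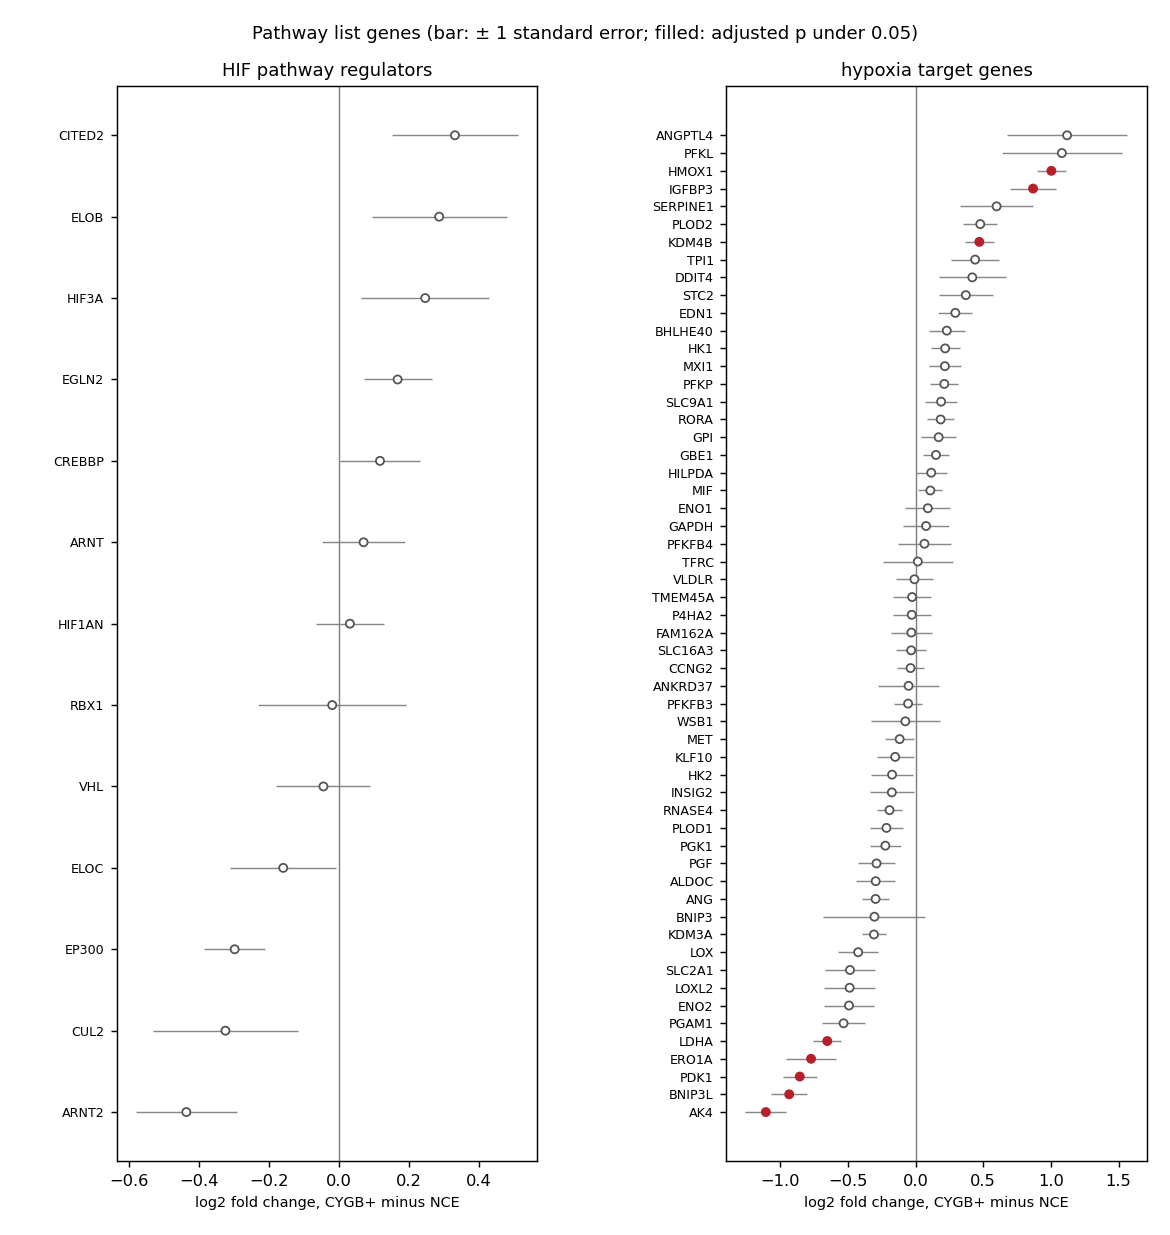
Log2 fold change (CYGB+ minus NCE) with bars of 1 standard error for the 13 regulators of the HIF pathway (left) and the 56 tested hypoxia target genes (right), each panel with its own scale. Filled points have an adjusted p under 0.05, and the 3 that rose and 5 that fell are all in the right panel.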

How the data were processed

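The deposited scanner files hold 2-colour Feature Extraction 10.7.3.1 output, and the intensity columns are per the file headers not normalized between arrays. Per the labels each sample was labelled with Cy3, so the green channel was used, whereas the methods give Cy5 for the control and Cy3 for CYGB+, and the content of the red channel is not given in the sources used here. Green median signal (the files used here hold no mean signal column) was corrected with normexp (offset 50), quantile normalized and put on the log2 scale. Outlier spots were left out, spots of a probe were averaged, and then array repeats. Probes well above background on more than a share of 0.5 of the arrays of either group were tested with limma 3.58.1 (lmFit, eBayes) in R 4.3.3, with Benjamini-Hochberg adjustment over 22186 probes at 5%. The number of arrays limits the precision. Names came from RefSeq accessions (GRCh38.p14 table), which gave 25422 of 42405 probes a symbol, and a gene's main probe was that of highest mean. The deposited value table of the authors holds log2-like values of 15040 rows (column medians -0.16 to 0.18, slope 0.68 on the scanner's processed signal), with centring and filter unknown. It holds the main probe of 5 members and served as an alternative.

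By the rule, genes named were all members, the cytoglobin probe, and per list up to 4 called genes that rose and 4 that fell most. Outside it, LDHA, ARNT, ARNT2, EP300 and the cell type markers named were chosen after their values were seen. The members and lists were chosen with earlier results of these data known. Slide terms were fitted over 15 arrays with biological replicate as a random block. The correlation of array repeats within a replicate was estimated at 0.17 in that fit. Array repeats therefore counted almost as separate values in its p-values. Deviations of same-numbered replicates had correlations of 0.21, 0.23 and 0.30, with no reference value to set them against. The sample titles state no pairing between the groups. Whether the numbers pair the samples is therefore not known, and the main fit was unpaired. The code was tested on simulated data. Alternatives were other signal columns and scalings, no filter, a replicate block, unaveraged arrays, the slide, left-out replicates and the methods' t-test. Leaving out arrays that stood apart, or the NCE array of the second slide, was chosen after seeing the data. No column of per-sample values was left unused (0).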

Additional observations from a re-analysis of the deposited data

Results flagged for a closer look

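Within each group of arrays, 5 of 24 sets of member values held an array far from the others by Dixon's criterion. For independent values about 1 in 20 is expected. The sets share the same 15 arrays and include array repeats, so the count cannot be set against that share. CYGB+ replicate 1 array 1 was low for the 1-spot HIF1A probe at 7.5 and for EPAS1 at 10.13, and high for ADM at 14.74. NCE replicate 3 array 2 was high for EGLN3 at 7.26. NCE replicate 1 array 3, the only NCE array of the second slide, was high for CA9 at 7.69. The first 4 of these came from arrays already set apart by their correlation with their group, and their part in each result is given by the values without them. The red channel, which no comparison used, held signal as well, with 55.6% of spots well above background on its lowest array and 61.4% on its highest, and what RNA it carries was not tested.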

How the results depend on the processing

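Against 2424 called probes, 4 called members and 8 called list genes, 75th percentile scaling gave 1513 probes, unaveraged arrays 4921 probes and 18 list genes, slide as a block 732, 1 and 2, the second slide alone 5, 0 and 0 (with 3 members, 15 target genes and 1 regulator at an unadjusted p under 0.05 by limma), the methods' t-test 670, 1 and 1 after adjustment (5437 probes at the unadjusted threshold), and the deposited values 1444, 2 and 4. Without the 3 arrays that stood apart 5075 probes and 20 list genes were called, and 4564 and 20 with slide as a block too. Leaving out 1 replicate gave 486 to 2417 probes, 2 to 4 members and 4 to 9 list genes, with the fewest probes without NCE replicate 2 (486) and NCE replicate 3 (494). By the methods' t-test the member called was P4HA1 (adjusted p = 0.0261) and the list gene was HMOX1 (adjusted p = 0.0375). By the same test HIF1A (adjusted p = 0.0820 and 0.0834 on its probes), EPAS1 (0.136) and NDRG1 (0.0921) were not called. Slide as a block moved the share of calls that rose from 50.9% to 38.7%. The ADM difference (0.01) was -0.30 with slide as a block, -0.31 within the second slide, -0.41 with slide as a block without the 3 arrays, -0.094 without those 3 arrays, and -0.191 (without CYGB+ replicate 1) to 0.124 (without CYGB+ replicate 2) when 1 replicate was left out, with -0.018 and -0.011 without NCE replicates 2 and 3. The CA9 difference (-0.07) was 0.057 (without CYGB+ replicate 1) to -0.175 (without CYGB+ replicate 2) when 1 replicate was left out, 0.016 without NCE replicate 1 and 0.077 without the NCE array of the second slide. The fit with the replicate number as a block called 2950 probes, 4 members and 11 list genes and changed no call among the members and named list genes. The other tested member probes and AK4, BNIP3L, PDK1, ERO1A, HMOX1, IGFBP3 and KDM4B kept their direction under the alternatives that could be fitted. ARNT, which was not put through all of these, was 0.07 and became -0.14 with slide as a block. The causes of these changes were not tested. The main limits are 3 replicates a group, 1 clone, 1 NCE array shared with the CYGB+ slide, and dim signal for EGLN3, CA9 and CA12.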
